A study of Equus asinus with 2 samples.

Results

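NR2F1, NR2F2, TCF21 and MSC are 4 transcription factor genes of interstitial progenitor cells, the mesenchymal cells that lie outside the cords and tubules of the developing gonad and mesonephros. They were taken by gene symbol from the feature lists of 2 single-cell RNA libraries of fetal donkey (Equus asinus), as 4 of 38517 features, and all 4 had UMIs in both libraries. A UMI is a unique molecular identifier, a tag that stands for 1 captured RNA molecule. The first library is labelled mesonephric and gonadal tissue and comes from 4 weeks of gestation. The second is labelled ovarian tissue and comes from 8 weeks. The labels name no strain, genotype, treatment or sex, and do not give the number of fetuses behind either library. Both samples are also labelled as germ cells, although the germ cell gate described below held 4.12% of the cells at 4 weeks and 4.38% at 8 weeks.

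NR2F1 and NR2F2 (COUP-TFI and COUP-TFII) are orphan nuclear receptors, which bind DNA as dimers and can repress or activate their targets. NR2F2 is known from the mesenchyme of many organs, from venous endothelium and, in the gonad, from the interstitial cells among which the androgen-producing Leydig cells arise. TCF21 and MSC (musculin, not to be read as mesenchymal stem cell) are related basic helix-loop-helix (bHLH) factors that pair with the widely expressed E proteins TCF3, TCF4 and TCF12. TCF21 is known from the mesenchyme and the podocytes of the kidney and from the gonadal interstitium, and MSC is known as a repressor in muscle and lymphoid lineages.

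After filtering there were 8912 cells with a median of 7775.5 UMIs at 4 weeks and 14590 cells with a median of 5880 UMIs at 8 weeks, and the libraries shared 38 barcode sequences. Stage, dissected tissue and library differed together and cannot be told apart, and with 1 library per stage no test was possible. Intervals are at 95% and cover counting error only. The library labelled ovary held 524 cells with AMH and SOX9, the markers of the Sertoli cells of the testis cord, where AMH stood at 3563 CPM, and 331 Leydig-like cells with INSL3 at 2426 CPM. These genes go against its label, so it is called the library labelled ovary, and no sex is assumed. Levels are in CPM: the cells of a gate were pooled, and the UMIs of a gene were divided by the gate's total and multiplied by 1000000.

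Cells were assigned to gates by markers of which none was one of the 4 genes. Stroma needed at least 2 of DCN, LUM, PDGFRA, OGN and DPT, pericytes RGS5 with NOTCH3, and Leydig-like cells STAR with CYP17A1, CYP11A1 or INSL3. The stroma gate held 1226 cells at 4 weeks (13.8%) and 4840 at 8 weeks (33.2%), the pericyte gate 82 and 513, and the Leydig-like gate 140 and 331. The epithelial gate, for coelomic or surface epithelium, held 14 and 33 cells, too few for a comparison. Its label did not stand at 4 weeks, since UPK3B was at 6.84 CPM from 3 UMIs and the stromal COL1A1 at 1192 CPM. Ungated cells made up 32.9% and 40.6% of the libraries and were shallow, with medians of 3368 and 1853 UMIs.

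In stroma-gated cells MSC differed most between the stages and the other 3 genes differed little. MSC stood at 9.85 CPM (8.28 to 11.6) at 4 weeks, from 139 UMIs. In the library labelled ovary it stood at 111 CPM (108 to 113), from 6737 UMIs, which was 11.2-fold higher (9.51 to 13.4). Of the 4 genes it was the 1 that was at least 2-fold higher at 8 weeks, a fold passed by 6.17% of the 21418 features with at least 10 UMIs in the gate. None of the 4 was at least 2-fold lower, beside 12.6% of those features. The median log2 ratio of 8 over 4 weeks was -0.12 over all features.

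TCF21, the bHLH relative of MSC, was at 69.8 CPM (65.5 to 74.3) and 81.4 CPM (79.2 to 83.7), 1.17-fold higher at 8 weeks (1.09 to 1.25). Macrophages should lack these genes, so their UMIs per cell were taken as a measure of RNA from other cells. When those of the whole macrophage gate were subtracted, the TCF21 ratio was 0.98, and with macrophages that passed no other gate it was 1.13. The direction thus depended on the macrophages used.

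Both nuclear receptors were lower at 8 weeks by less than 2-fold. NR2F1 was at 116 CPM (111 to 122) and 78.6 CPM (76.4 to 80.9), 1.48-fold lower (1.40 to 1.57). NR2F2 was at 464 CPM (453 to 476) and 383 CPM (378 to 388), 1.21-fold lower (1.18 to 1.25). Across all stroma-gated cells, then, MSC and the receptors moved in opposite directions between these libraries.

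Reads of neighbouring genes may be mixed in 3 of the 4 values. In a RefSeq gene table of the donkey, NR2F2 overlaps the protein-coding LOC106831998, TCF21 the long non-coding LOC123279614 and MSC the long non-coding LOC106839199, while NR2F1 overlaps no gene. Whether counting used strand is not given in the sources used here, so reads in the overlaps may not be separable. The level of LOC106839199 in the stroma gate was 40.5 CPM and 85.6 CPM, 2.11-fold higher at 8 weeks (1.94 to 2.31). LOC106831998 was at 399 and 352 CPM, a 1.13-fold lower level at 8 weeks. LOC123279614 was at 3.76 and 5.74 CPM, 1.53-fold higher at 8 weeks (1.14 to 2.08).

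The counts per cell showed how these levels were spread. At 4 weeks 90.4% of stroma-gated cells had 0 UMIs of MSC, and the highest cell had 3. In the library labelled ovary 47.0% had 0 UMIs, 12.5% had 4 or more, and the highest cell had 17. The median depth of the gate was similar, with 8761.5 and 8237 UMIs. TCF21 had 0 UMIs in 55.3% and 50.5% of the cells and NR2F1 in 45.4% and 53.1%. NR2F2 had 0 UMIs in 7.50% and 13.5% of the cells, and 53.6% and 45.1% had 4 or more. For NR2F1 the 4-week library also held cells far above the rest, with up to 68 UMIs against a highest cell of 13 at 8 weeks.

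**Figure D1:**
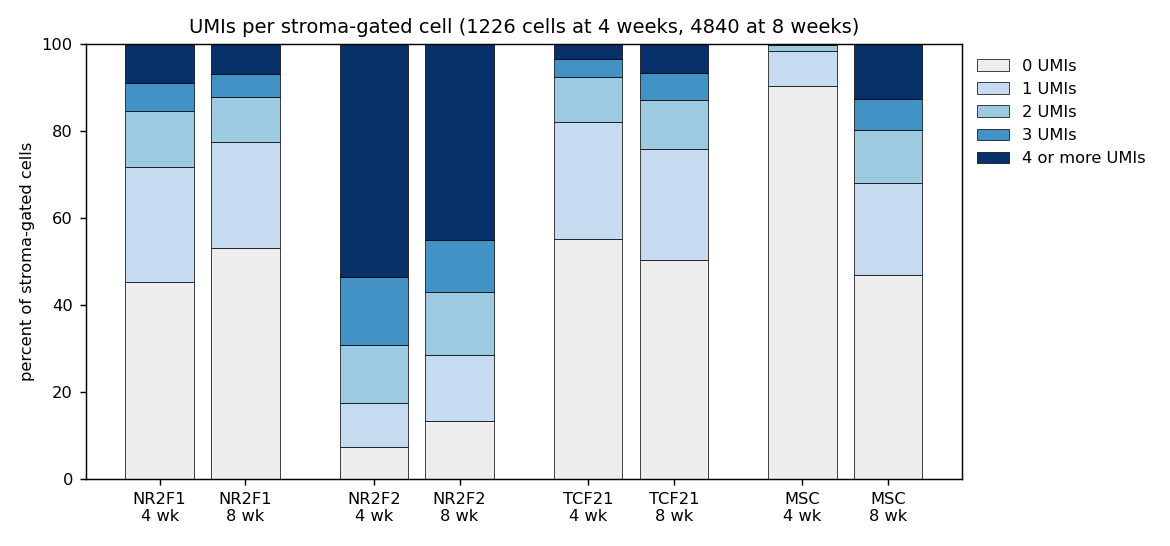
Percent of stroma-gated cells (vertical axis) with 0, 1, 2, 3 or at least 4 UMIs of each gene, 1 bar per gene and library, without thinning. The MSC bar changes most, from 90.4% of cells at 0 UMIs at 4 weeks to 47.0% at 8 weeks.

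To compare shares of cells, each cell was thinned to 1000 UMIs. MSC was then found in 1.14% (0.626 to 1.91) of 1225 stroma-gated cells at 4 weeks and 10.1% (9.25 to 11.0) of 4821 at 8 weeks. In macrophages, which should lack it, it was found in 0 of 122 cells, which allows a share of up to 2.46%, and in 1.73% of 808 cells. Larger gates of the 4-week library gave 0 of 1100 tubule cells, which allows up to 0.273%, and 1 of 1349 endothelial cells, 0.0741%. The stroma share was above these at 4 weeks and above the macrophage share at 8 weeks. NR2F2 was found in 35.1% and 29.0% of stroma-gated cells, against 0.820% and 3.84% of macrophages. TCF21 was found in 7.84% and 7.76%, against 0 and 0.743% of macrophages, and NR2F1 in 8.73% and 6.87%, against 2.46% and 1.49%. The median depth of the macrophage gate was 5667 and 5395 UMIs before thinning.

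Apart from pairs with MSC at 4 weeks, which had too few cells to tell, no pair in stroma-gated cells was resolved from the product of its single shares. NR2F2 and TCF21 shared 2.29% of thinned cells (1.52 to 3.29) at 4 weeks, beside a product of 2.75%. At 8 weeks they shared 2.47% (2.05 to 2.95), beside 2.25%. TCF21 and MSC shared 0.726% (0.506 to 1.01) at 8 weeks, beside 0.782%. For all 6 pairs, in both libraries, the product lay within the counting interval of the observed share. At 4 weeks 14 of the 1225 thinned cells held MSC, so for its pairs there the product could hardly lie outside. Other sparse pairs were limited too, since NR2F1 and TCF21 were found in 107 and 96 of these cells. The interval of TCF21 with MSC at 8 weeks leaves room for a departure in either direction. After thinning, 54.2% and 55.2% of the cells had none of the 4 genes and 0 cells had all 4, so these shares are set by depth. Without thinning NR2F2 and TCF21 were found together in 42.3% and 46.8% of stroma-gated cells.

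Within the stroma gate the levels of MSC and TCF21 differed in opposite directions when the cells were split by PTCH1, NRG1 or POSTN. Cells with at least 2 UMIs of a second gene were compared with cells with 0 UMIs of it, within each library. PTCH1, the hedgehog receptor that is itself a target of the pathway, split the genes in opposite directions. MSC was at 12.5 CPM in cells with PTCH1 and 7.57 CPM in cells without it at 4 weeks, and at 119 and 81.1 CPM at 8 weeks, ratios of 1.65 (1.09 to 2.57) and 1.47 (1.36 to 1.58). TCF21 was at 62.2 and 78.3 CPM at 4 weeks, and at 73.5 and 112 CPM at 8 weeks, ratios of 0.795 (0.686 to 0.921) and 0.659 (0.616 to 0.706). The ratios lay on the same side of 1 in both libraries.

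NRG1, a growth factor of the EGF family, gave the same contrast. The MSC ratio of cells with over cells without NRG1 was 2.08 (1.37 to 3.22) and 1.47 (1.36 to 1.59), and the TCF21 ratio 0.666 (0.580 to 0.764) and 0.587 (0.548 to 0.629). POSTN, a matrix protein of fibroblasts, gave the opposite one. There the MSC ratio was 0.368 (0.185 to 0.669) and 0.459 (0.422 to 0.498), and the TCF21 ratio 1.48 (1.27 to 1.72) and 1.44 (1.35 to 1.54). MSC was also lower in cells with WT1, a factor of the gonadal ridge, at ratios of 0.399 and 0.686, where TCF21 ratios were 1.08 and 1.04. With PENK, the enkephalin precursor, MSC was at 46.9 CPM against 119 CPM at 8 weeks, a ratio of 0.393 (0.345 to 0.446).

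NR2F2 varied little across these splits, with ratios from 0.853 to 1.21 in either library over all genes used. NR2F1 stood out with PI15, a secreted protease inhibitor, at 4 weeks. It was at 291 CPM in 59 cells with PI15 and 107 CPM in 1117 cells without it, a ratio of 2.72 (2.31 to 3.18), while the ratio at 8 weeks was 1.16 (1.07 to 1.25). The 291 CPM came from 179 UMIs, in a gate where the highest cell held 68 UMIs of NR2F1. Whether few cells carried the 4-week ratio was not tested. With ACTA2, the smooth muscle actin, NR2F1 ratios were 1.35 (1.22 to 1.51) and 1.23 (1.14 to 1.34). Among cells with 5000 to 20000 UMIs they were 1.13 and 1.09, and both intervals included 1. With PI15 they were 2.17 (1.73 to 2.69) and 1.13, and the latter interval included 1.

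Cells with a gene were deeper than cells without it in most splits, for PTCH1 with median UMIs of 10787 against 7438 and 13729 against 5862. Among cells with 5000 to 20000 UMIs, 43 of the 76 intervals that excluded 1 at every depth still excluded it on the same side, over 112 splits of the 4 genes. Another 2 of the 76 excluded 1 on the other side. They were NR2F1 by WT1 at 4 weeks, at 0.855 (0.733 to 0.996), and NR2F2 by LUM at 8 weeks, at 0.952 (0.909 to 0.996). All these intervals leave out the spread between cells and were not corrected for the number of splits, so the counts are a description. The depth range narrowed the difference in depth for PTCH1 and NRG1 without removing it. For PTCH1 the medians there were 9796.5 against 7817 at 4 weeks and 10424.5 against 7325 at 8 weeks. For NRG1 they were 10196.5 against 7954 and 9904 against 7302. The contrast between MSC and TCF21 was present in this depth range at 8 weeks, with PTCH1 ratios of 1.51 for MSC and 0.709 for TCF21. At 4 weeks the values there were 1.75 (1.13 to 2.78) and 0.857 (0.717 to 1.02), so the TCF21 interval included 1. With NRG1 the 4-week ratios in this depth range were 2.11 (1.36 to 3.34) for MSC and 0.739 (0.623 to 0.877) for TCF21, and both intervals excluded 1. With POSTN the 4-week ratios were 0.719 (0.302 to 1.47) for MSC and 1.09 (0.820 to 1.43) for TCF21, while at 8 weeks they were 0.422 and 1.59.

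**Figure D2:**
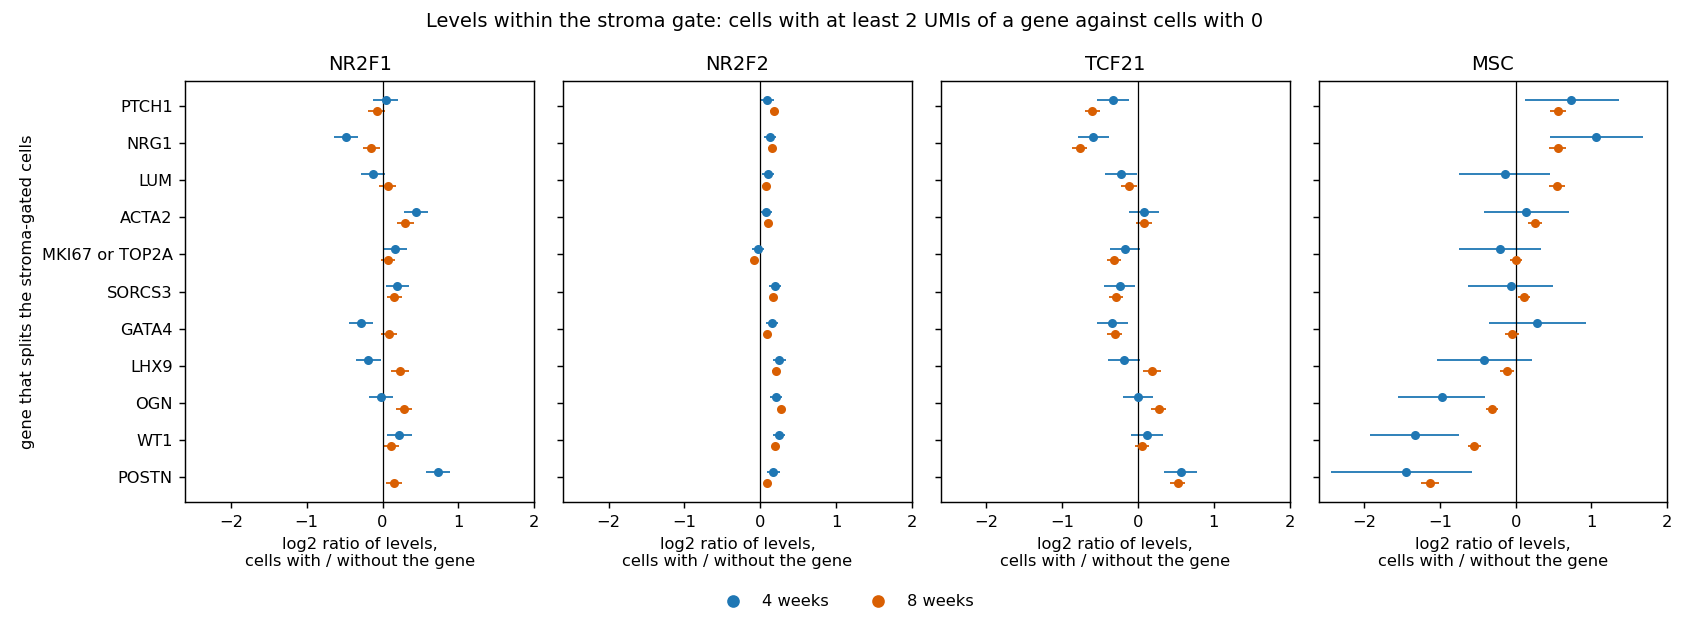
Log2 ratio of the level of each gene in stroma-gated cells with at least 2 UMIs of the gene on the vertical axis over cells with 0 UMIs of it, with 95% counting intervals, for cells of every depth. MSC lies right of 0 and TCF21 left of 0 for PTCH1 and NRG1, the reverse holds for POSTN, and NR2F2 stays near 0.

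Among gates with at least 50 cells, NR2F1 was highest in pericyte-gated cells, the mural cells of small vessels. Its level there was 236 CPM (208 to 266) at 4 weeks and 133 CPM (128 to 139) at 8 weeks, against 116 and 78.6 CPM in stroma. Many pericyte-gated cells also passed the stroma gate, 24 of 82 at 4 weeks and 344 of 513 (67.1%) at 8 weeks, and DCN was at 317 and 1592 CPM in the gate. Without those cells, 58 and 169 were left, with NR2F1 at 259 and 184 CPM, or 222% and 234% of the stroma level. The 7 stromal reference genes DCN, LUM, PDGFRA, OGN, COL1A1, COL1A2 and COL3A1 stood at 3.53% to 110% and 4.85% to 158% of their stroma level in the same cells. NR2F1 was thus the 1 of the 4 genes above all references in pericytes in both libraries. Of the references, DCN, LUM, PDGFRA and OGN are also markers of the stroma gate, and none of the 4 genes is. Leaving out cells that pass the stroma gate lowers these references by selection, here and in the gates below. A level above the references is therefore a description.

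The stage ratio of NR2F1 in pericytes depended on the gate, from 1.77-fold lower at 8 weeks in all gated cells to 1.41-fold lower in cells that passed no other gate. On the log2 scale it fell by 0.82 in all gated cells and by 0.15 with at least 10 UMIs of RGS5, which left 20 and 103 cells. NR2F2 was at 344 and 385 CPM in the pericyte gate, and at 292 and 281 CPM without cells that also passed the stroma gate. TCF21 was at 35.3 and 65.1 CPM, and at 47.9 and 33.4 CPM without them, from 33 and 61 UMIs. Its direction turned, but the latter ratio of 0.698 (0.450 to 1.10) had an interval that included 1. MSC was at 7.25 and 82.7 CPM, and at 4.36 CPM from 3 UMIs and 38.4 CPM without cells that also passed the stroma gate. In the whole pericyte gate, MSC was the 1 of the 4 genes at least 2-fold higher at 8 weeks, beside 12.2% of 17073 features. None was at least 2-fold lower, beside 12.8%.

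Leydig-like cells, the androgen-producing cells, held less of all 4 genes than stroma in both libraries. NR2F2 was at 110 CPM (98.5 to 122) and 155 CPM (147 to 164), against 464 and 383 CPM in stroma. At 8 weeks 135 of the 331 cells (40.8%) also passed the stroma gate. Without such cells, 119 and 196 were left, and NR2F2 was at 79.7 and 80.1 CPM, a ratio of 1.01 (0.839 to 1.21). That was 17.2% and 20.9% of the stroma level, above the 7 reference genes, which lay at up to 6.85% and 10.5%. NR2F1 was at 26.6 and 22.3 CPM in these cells, 22.8% and 28.3% of the stroma level and also above the references.

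TCF21 was low in Leydig-like cells that passed no other gate. It was at 0.805 CPM at 4 weeks, from 2 UMIs, and 4.86 CPM at 8 weeks, or 1.15% and 5.97% of the stroma level, within the range of the references. MSC was at 0.805 CPM (0.0974 to 2.91), also from 2 UMIs, and 13.8 CPM, or 8.17% and 12.5% of the stroma level. The references lay at up to 6.85% and 10.5%. At 4 weeks 2 UMIs do not resolve the place of MSC against them. The 8-week value stands beside 12.4 CPM in macrophages that passed no other gate. In the whole gate TCF21 was at 5.17 and 17.1 CPM and MSC at 1.29 and 40.8 CPM, and both were at least 2-fold higher at 8 weeks, beside 10.9% of 15791 features. None was at least 2-fold lower, beside 8.47%.

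**Figure D3:**
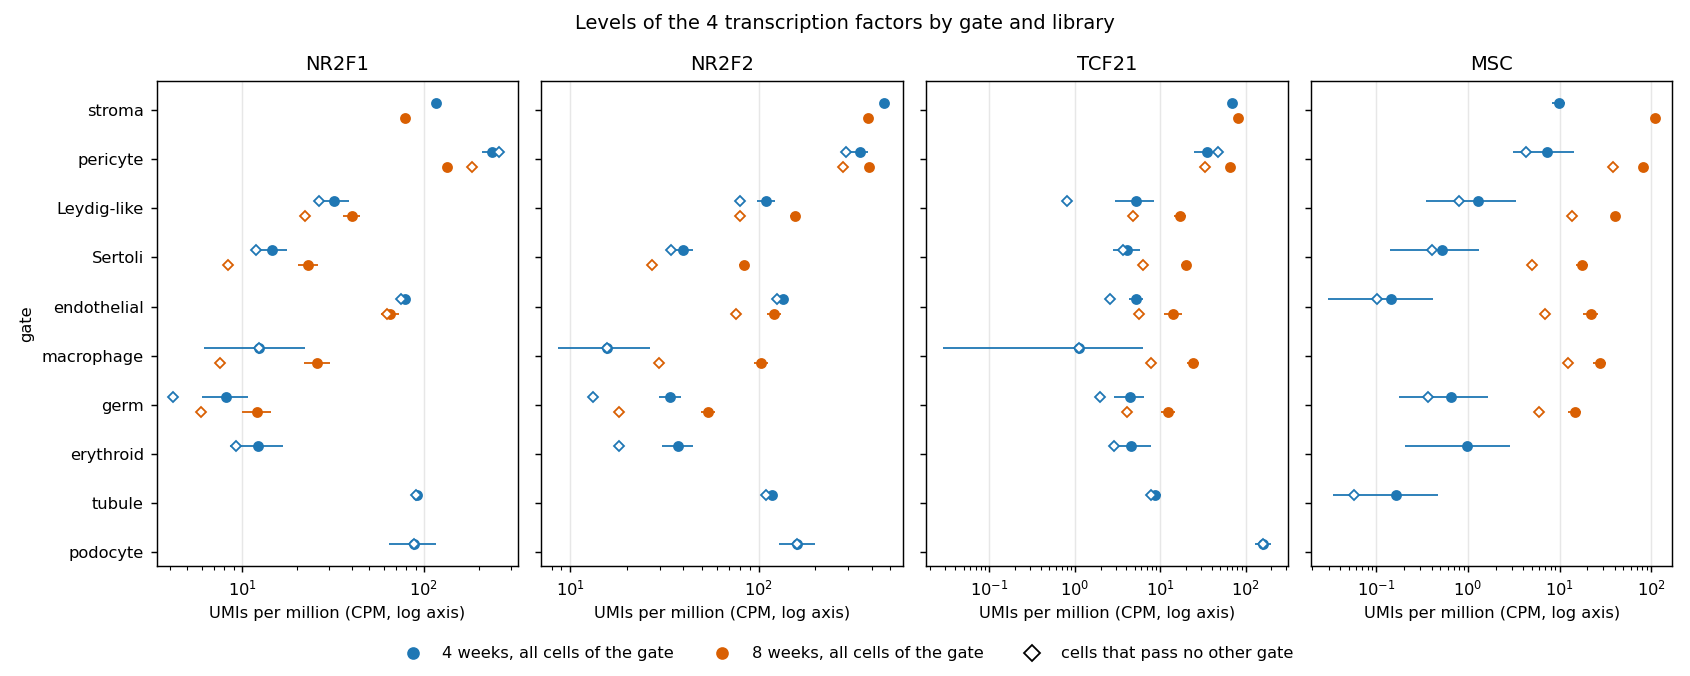
Levels in CPM (log axis) of the 4 genes in each gate with at least 50 cells. Filled points are all cells of a gate with 95% Poisson intervals, open diamonds are cells that pass no other gate, and values of 0 are not drawn (MSC in macrophages and podocytes at 4 weeks, and in erythroid cells that pass no other gate). MSC is higher at 8 weeks in every gate drawn at both stages, and in the library labelled ovary most diamonds outside the stroma lie left of the filled points.

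Endothelial cells carried the receptors well above the stromal references and the bHLH factors at low levels, at 8 weeks not above those of macrophages. NR2F1 was at 78.7 CPM (75.0 to 82.6) at 4 weeks and 65.0 CPM (57.9 to 72.8) at 8 weeks, and NR2F2 at 135 CPM (130 to 140) and 121 CPM (111 to 132). In cells that passed no other gate NR2F1 stood at 63.9% and 80.0% of its stroma level and NR2F2 at 27.1% and 19.8%, where the references lay at up to 2.58% and 6.90%. TCF21 was there at 2.61 and 5.60 CPM, and MSC at 0.101 CPM from 2 UMIs and 6.93 CPM. These were 3.74% and 6.87% of the stroma level for TCF21, and 1.02% and 6.26% for MSC. Sertoli cells that passed no other gate held NR2F2 at 34.3 and 27.2 CPM, NR2F1 at 12.0 and 8.33 CPM, TCF21 at 3.63 and 6.34 CPM, and MSC at 0.403 CPM from 3 UMIs and 5.02 CPM. Macrophages that passed no other gate held NR2F2 at 15.8 and 29.5 CPM and NR2F1 at 12.4 and 7.56 CPM. They held TCF21 at 1.13 CPM from 1 UMI and 7.81 CPM, and MSC at 0 UMIs and 12.4 CPM. At 8 weeks the bHLH factors in endothelial and Sertoli cells, and NR2F2 in Sertoli cells, were thus not above macrophages.

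The mesonephric gates, filled at 4 weeks alone, separated the genes further. Podocytes, the filter cells of the kidney glomerulus, held the highest TCF21 level of that library. TCF21 was at 160 CPM (128 to 199) from 84 UMIs in 62 cells, 230% of its stroma level, with references at 1.16% to 7.42%. Those UMIs lay in 23 of the 62 cells. Thinned to 1000 UMIs, TCF21 was found in 8.33% of podocytes (2.76 to 18.4), beside 7.84% of stroma-gated cells. Thinned to 3000 UMIs, the shares were 28.3% (16.0 to 43.5) and 18.5% (16.4 to 20.8). The intervals overlapped at both depths, so these shares did not resolve the higher level. MSC had 0 UMIs in these cells, which allows up to 5.73 CPM. Tubule cells held NR2F1 at 91.6 CPM (87.3 to 96.1) and NR2F2 at 117 CPM (112 to 122), TCF21 at 8.68 CPM, and MSC at 0.163 CPM from 3 UMIs. In the library labelled ovary 0 cells fell in either gate, so podocyte and tubule levels at 8 weeks were not measured.

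In the few epithelial-gated cells TCF21 was at 125 CPM (94.4 to 163) at 4 weeks and 165 CPM (140 to 193) at 8 weeks. NR2F1 was at 267 and 121 CPM, NR2F2 at 428 and 270 CPM, and MSC at 0 and 33.4 CPM. Of the 33 cells at 8 weeks, 20 also passed the stroma gate. When every cell that passed the epithelial gate was kept, 78 and 56 cells, the TCF21 levels were 58.9 and 146 CPM and the NR2F2 levels 203 and 275 CPM, so the NR2F2 direction turned. Thinned to 1000 UMIs, NR2F2 and TCF21 were found together in 1 of 14 cells at 4 weeks.

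Macrophages of the library labelled ovary held more of the 4 genes and of the stromal references than those of the 4-week library, except for NR2F1 in macrophages that passed no other gate. Whether RNA of lysed cells or droplets with several cells brought them there was not tested. In the whole gate MSC had 0 UMIs at 4 weeks and stood at 27.4 CPM at 8 weeks, TCF21 at 1.13 and 24.2 CPM, NR2F2 at 15.8 and 103 CPM, and NR2F1 at 12.4 and 25.9 CPM. At 8 weeks these were 24.7% to 32.9% of the stroma level, and the 7 references lay at 21.0% to 33.2% in the same cells. Without the 95 macrophages that also passed the stroma gate, the 8-week levels were 12.4 CPM for MSC, 7.81 CPM for TCF21, 29.5 CPM for NR2F2 and 7.56 CPM for NR2F1. At 4 weeks the erythroid gate gave higher values for 3 genes, with NR2F2 at 37.2 CPM, TCF21 at 4.61 CPM and MSC at 0.988 CPM from 3 UMIs. Levels in germ cells, 4.77% to 7.58% of the stroma level at 8 weeks in cells that passed no other gate, stood beside references at 2.47% to 6.80%, with NR2F1 above them. NR2F1 was also above the references in macrophages at 4 weeks, at 10.6% of its stroma level from 11 UMIs, against 2.84% for the highest reference. NR2F2 was above it too, at 3.40%. At 8 weeks MSC stood at 11.2% in macrophages that passed no other gate, against 9.82%. All 4 genes were above the references in the whole erythroid gate at 4 weeks, at 6.61% to 10.5% against 5.37%. The same held for Sertoli cells that passed no other gate at 4 weeks. Passing the references thus did not set a gate apart from macrophages.

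**Figure D4:**
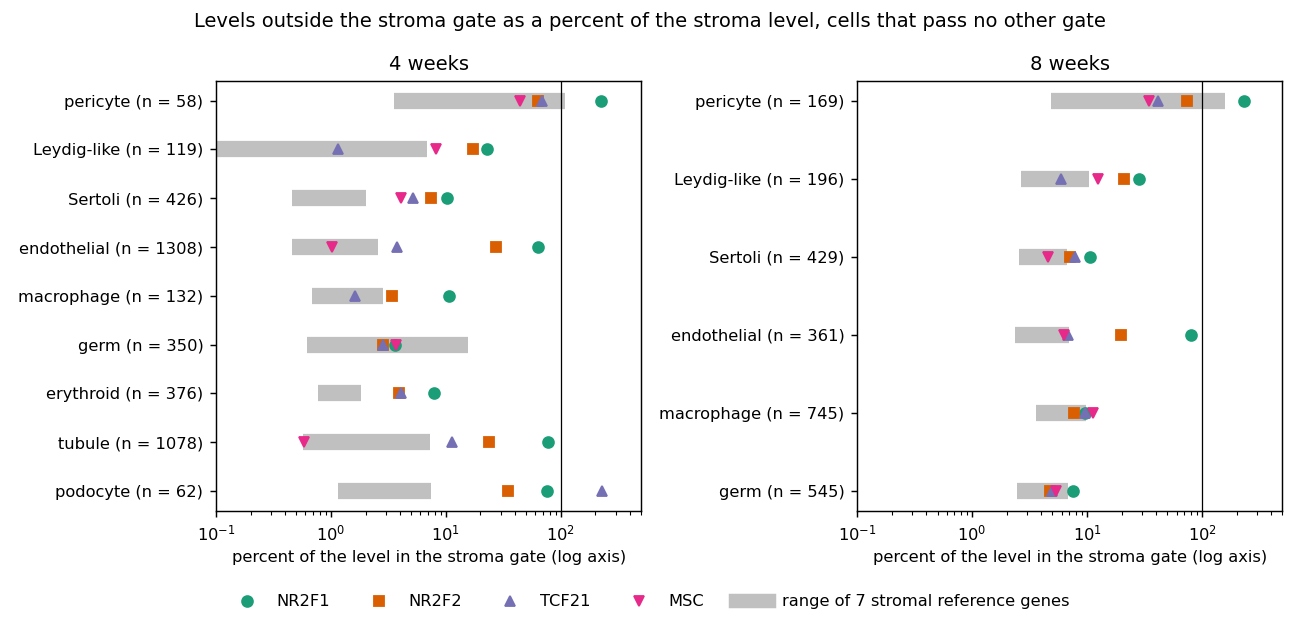
Level of each gene in cells that pass a single gate, as a percent of its level in the stroma gate of the same library (log axis), for gates with at least 50 such cells. Grey bars span the 7 stromal reference genes, drawn from the axis edge where their lowest value is 0, and MSC values of 0 are not drawn. Of the references, DCN, LUM, PDGFRA and OGN are stroma gate markers, which leaving out cells that pass that gate lowers by selection. NR2F1 and NR2F2 lie right of the bars in Leydig-like and endothelial cells of both libraries, and TCF21 lies at 230% in podocytes.

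Ordered by level, the gates with at least 50 cells gave each gene its own profile. The epithelial gate is left out of this order for its 14 and 33 cells, although its NR2F1 level at 4 weeks lay above that of pericytes and its TCF21 level above that of stroma at both stages. For NR2F1 at 4 weeks pericytes led, stroma came next, then tubule, podocyte and endothelial cells, then Leydig-like cells at 32.0 CPM. The podocyte interval overlapped those of tubule and endothelial cells, and the gates from Sertoli cells at 14.7 CPM to germ cells at 8.16 CPM each overlapped the next. At 8 weeks the order was pericytes, stroma, endothelial and Leydig-like cells, none of which overlapped. Stroma led for NR2F2 at 4 weeks, followed by pericytes and, with overlapping intervals, podocytes and endothelial cells, while at 8 weeks pericytes and stroma overlapped. The orders given here are over all cells of each gate. In pericytes that passed no other gate, NR2F2 at 8 weeks was at 281 CPM (257 to 306), below stroma at 383 CPM (378 to 388). TCF21 was ordered podocyte, stroma, pericyte and tubule at 4 weeks without overlap, and stroma before pericyte at 8 weeks. MSC had overlapping intervals in stroma and pericytes at 4 weeks, and at 8 weeks it was ordered stroma, pericyte and Leydig-like cells without overlap.

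The features with the most similar profiles differed between the genes. Likeness was Pearson's r of log2(CPM + 10) over the 17 profiles of gate and library with at least 50 cells, which share 2 libraries, so it is a description. Only features with a symbol and at least 20 CPM in any profile were ranked. The gate markers, stromal ones among them, were left out of the ranking. For NR2F1 the 5 closest features were ENDOD1 (r = 0.955), HOXD4, PGM5, C5H1orf159 and CRACR2A (0.915). For NR2F2 they were CBX6 (0.953), HOXC6, HOXD9, HOXD4 and SFRP1 (0.934), of which HOXC6, HOXD9 and HOXD4 are positional homeobox genes and SFRP1 is a secreted WNT inhibitor. For TCF21 they were NPR3 (0.973), SPON1, ANGPTL2, COL4A6 and FOXP2 (0.929), and for MSC FGL1 (0.963), ALKAL2, CYTL1, SHD and TMEM119 (0.918). Among the 4 genes themselves NR2F1 and NR2F2 were closest, with r = 0.890, and NR2F1 and MSC farthest, with r = 0.286. TCF21 and MSC, though of 1 family, had r = 0.503.

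Few relatives of the 4 genes differed 2-fold or more between the stages in the stroma gate, too few to set them apart from all features. Of 8 nuclear receptors related to NR2F1 and NR2F2, 6 were measured with at least 10 UMIs, 0 were at least 2-fold higher and 1 at least 2-fold lower. Over all features 6.17% were higher and 12.6% lower by that fold. That 1 was NR2E3, named after its values were seen, with 7 and 13 UMIs and a ratio of 0.431 (0.160 to 1.28). NR2F6, the closest relative of both, was at 63.0 and 83.6 CPM. NR2C2, a testicular orphan receptor, was at 136 and 96.9 CPM. The list's median log2 ratio was -0.085, beside -0.12 over all features.

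Among 10 tissue-specific bHLH factors 7 were measured, with 0 at least 2-fold higher, 1 lower and a median of -0.14. Over all features 6.17% were higher and 12.6% lower by that fold, which 1 of 7 does not set apart. HAND2, a factor of limb and heart mesenchyme, was at 55.5 CPM at 4 weeks and 13.1 CPM at 8 weeks, 4.23-fold lower (3.83 to 4.68). Of the 7 bHLH partners and inhibitors none was 2-fold different, with a median of -0.17. The E protein TCF4 had the highest level of that list, 638 and 566 CPM. The ID proteins, which block bHLH pairing, ranged from ID3 at 210 and 312 CPM to ID4 at 65.1 and 36.9 CPM. MSC thus differed 11.2-fold between libraries in which the levels of TCF3, TCF4 and TCF12 differed by 1.27-fold or less.

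The interstitial progenitor and mesenchyme list had 34 of 36 genes measured, the 4 genes among them, with 1 at least 2-fold higher, 6 lower and a median of -0.28, beside 6.17% higher and 12.6% lower over all features. The higher 1 was MSC itself. Those lower included HES1, a Notch target, at 122 and 34.4 CPM, GATA6, a factor of gonadal somatic cells, at 92.7 and 28.1 CPM, NES, the filament nestin of progenitor cells, at 89.6 and 34.9 CPM, and TBX3 at 30.1 and 12.1 CPM. TBX18, a factor of the urogenital ridge, was at 4.75 and 0.0822 CPM and FOXF1 at 0.425 and 0.0657 CPM, from 6 and 4 UMIs. Both are named after their values were seen. Among the genes with higher levels at 8 weeks were OSR2 at 88.1 and 142 CPM and TBX2 at 60.5 and 79.2 CPM.

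Of 9 measured partners of NR2F2 and Leydig cell genes, 3 were at least 2-fold higher in the stroma gate at 8 weeks and 0 lower, with a median of 0.28, beside 6.17% higher and 12.6% lower over all features. DLK1, a membrane protein of progenitor cells, was at 826 and 1678 CPM. CYP17A1, an androgen enzyme, was at 28.8 and 81.1 CPM, and its level in macrophages was 28.2 and 83.0 CPM. INSL3, a Leydig cell hormone named after its values were seen, had 0 UMIs at 4 weeks and was at 17.2 CPM at 8 weeks, against 22.7 CPM in macrophages. ZFPM2 (FOG2), a cofactor of GATA factors and NR2F2, had the highest level but DLK1, at 1037 and 802 CPM.

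**Figure D5:**
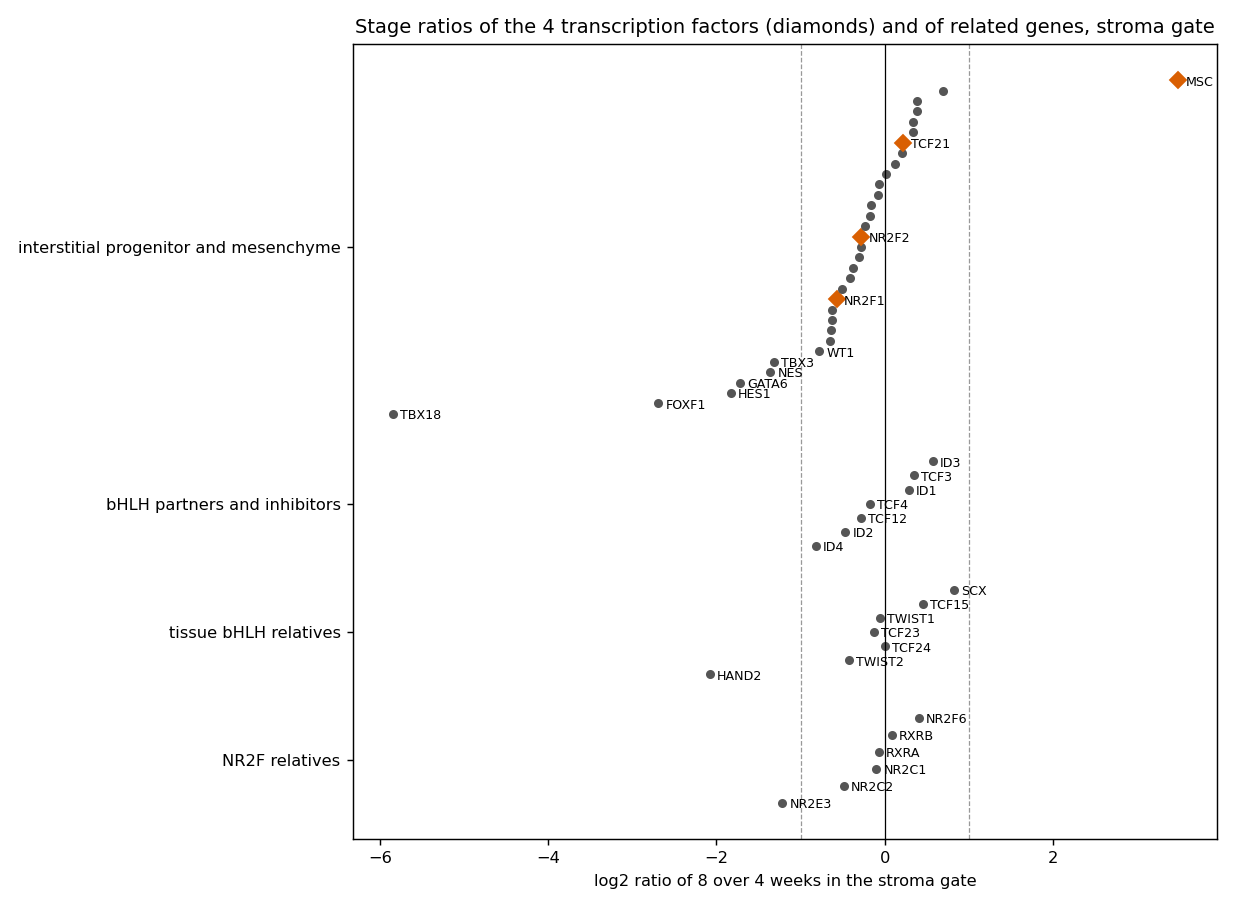
Log2 ratio of 8 over 4 weeks in the stroma gate for measured genes of 4 lists, with the 4 transcription factors as diamonds and 2-fold differences as dashed lines. In the interstitial list names are printed for the 4 genes and for those farthest from 0, and MSC lies at 3.49, right of every other gene drawn.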

How the data were processed

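Per the file headers, the deposited matrices were made with Cell Ranger 7.1.0, and per the submitters' processing notes with Cell Ranger 2.1.1. They hold raw UMI counts per feature and barcode, which the authors deposited without normalization. The kit named in the labels is DNBelab C series, but the barcodes are of the 10x Genomics form. The genome build, annotation, strandedness and intron handling were not given in the sources used here.

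The 4 genes, the markers and the lists were chosen with earlier results of these data known. Symbols of 768 locus identifiers were taken from a RefSeq table of the donkey, assembly EquAss-T2T_v2, and no sequence or coordinate was used. Barcodes under 200 genes, 26 and 3 of them, were removed. A gate marker counted from 2 UMIs. Cells that passed the stroma gate and another gate went to the other, and 672 and 509 cells that passed several other gates were left out. No doublet caller was run, and leaving out cells above 5 times the median UMIs was an alternative. Levels carry exact Poisson intervals, ratios exact conditional binomial intervals and shares Clopper-Pearson intervals, all at 95%. A count of 0 was given the limit set by 3 counts, over the summed cells of a gate. List medians used 0.5 UMI added to each sum.

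Named genes were the 4 genes, the 5 features closest to each, and from each list up to 4 genes with the highest and lowest stage ratios among those with at least 20 CPM, plus the gene with the highest level. NR5A1 and HSD3B1 of the lists were not matched to a feature. Alternatives were marker limits of 1 and 3 UMIs, leaving out cells that passed any 2 gates, at least 1000 genes per cell, means of per-cell levels, a total without the 50 most abundant features, 3000 UMIs or no thinning, and a list minimum of 50 UMIs. After seeing the data, 10 UMIs of RGS5, the epithelial gate without the overlap rule, 2 subtractions of macrophage UMIs and a depth range for the splits were added. Python 3.11.15, numpy 2.4.6, scipy 1.17.1 and pandas 2.3.3 were used, and the interval and ratio code was tested on simulated data. A gene of the interstitial list, counted in its totals, is not reported here by name.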

Additional observations from a re-analysis of the deposited data

Results flagged for a closer look

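NR2F2 was lower at 8 than at 4 weeks in the stroma gate and higher in the pericyte and Leydig-like gates. The log2 ratio in pericytes minus that in stroma was 0.44, and the log2 ratio in Leydig-like cells minus that in stroma was 0.78. With 1 library per stage the difference was not tested. In cells that passed no other gate, the NR2F2 log2 ratio was -0.057 in pericytes and 0.0081 in Leydig-like cells, against -0.28 in stroma. Cells that also passed the stroma gate made up 29.3% and 67.1% of the pericyte gate and 15.0% and 40.8% of the Leydig-like gate at 4 and 8 weeks.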

How the results depend on the processing

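The MSC log2 ratio in stroma was 3.49 and lay between 3.27 and 3.64 under all 9 alternatives. For NR2F1 it was -0.57, and -0.47 both with markers counted from 1 UMI and without cells above 5 times the median UMIs. Subtracting the macrophage UMIs per cell, an alternative chosen after seeing the data, gave -0.77 for NR2F1, -0.48 for NR2F2 (main value -0.28) and -0.026 for TCF21 (main value 0.22). NR2F2 with TCF21 shared 12.5% and 14.4% of stroma cells thinned to 3000 UMIs and 42.3% and 46.8% without thinning. With a list minimum of 50 UMIs, 774 of 16822 features were at least 2-fold higher at 8 weeks and 1220 lower, against 1322 and 2709 of 21418.

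Outside the stroma, 14 of 205 ratios under the alternatives changed direction, counted without regard to intervals under the alternatives. Leaving out cells that passed any 2 gates gave -0.057 for NR2F2 and -0.52 for TCF21 in pericytes, -0.52 for NR2F1 and -0.33 for NR2F2 in Sertoli cells, and -0.71 for NR2F1 in macrophages. Leaving out cells above 5 times the median gave -0.020 for NR2F2 in pericytes, -0.24 for NR2F1 in Sertoli cells and 0.19 for NR2F1 in endothelial cells. Markers from 1 UMI gave -0.091 for NR2F1 in Sertoli cells and, in endothelial cells, 0.13 for NR2F1 and 0.24 for NR2F2. Per-cell means gave 0.29 for NR2F1 in endothelial and -0.047 in germ cells. The epithelial gate without the overlap rule gave 0.44 for NR2F2. At 5000 to 20000 UMIs 18 of 112 split ratios lay on the other side of 1. Of those whose interval had excluded 1, NR2F1 at 4 weeks turned to -0.042 (log2) by MKI67 or TOP2A, -0.094 by SORCS3 and -0.23 by WT1, and NR2F2 to -0.066 by LUM. At 8 weeks NR2F2 turned to -0.017 by ACTA2, -0.072 by LUM and -0.022 by GATA4, and TCF21 to 0.053 by LUM. For NR2F1 by WT1 at 4 weeks and NR2F2 by LUM at 8 weeks, the interval in this depth range excluded 1 on the other side. The cause of these changes was not tested.

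No paired analysis was possible because each stage was 1 library. The 4-week MSC level in stroma rests on 139 UMIs, and the pericyte and Leydig-like levels of MSC at 4 weeks on 8 and 4 UMIs.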
